A study of Homo sapiens with 12 samples.

Results

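The transcripts described here come from 10 genes that report on and restrain RAS-ERK signalling, out of 19923 genes counted in each library. They were taken by gene symbol: DUSP4, DUSP5, DUSP6, SPRY1, SPRY2, SPRY4, SPRED1, ETV4, ETV5 and NF1. All 10 were found in the files and all 10 had enough reads to be tested in every comparison. RNA was sequenced from the neuroblastoma cell lines SK-N-BE2 and NGP, both established from human tumours and labelled as MYCN-amplified and WT, grown in serum-containing medium. SK-N-BE2 cells received 12 µM STM2457 and NGP cells 1 µM STM2457, each for 6 days, and each line had its own DMSO control of the same duration. STM2457 is a small-molecule inhibitor of METTL3, the enzyme that writes N6-methyladenosine onto messenger RNA. There were 3 replicates in each of the 4 groups, 12 libraries in all. The labels do not say whether replicates came from separate cultures, so p-values measure the spread between these libraries, which may be technical. Line, dose and the folder named in the file headers, which may stand for a sequencing run, all differed together and cannot be told apart.

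In the RAS-ERK pathway, growth factor receptors load RAS with GTP, RAS engages RAF, and a kinase relay ends in ERK, which enters the nucleus. Active ERK switches on a set of genes that feed back on the same route. The dual-specificity phosphatases DUSP4, DUSP5 and DUSP6 remove phosphate from ERK, the Sprouty proteins SPRY1, SPRY2 and SPRY4 and the related SPRED1 act nearer to RAS and RAF, and ETV4 and ETV5 are ETS-family transcription factors whose transcripts follow ERK activity. NF1 encodes neurofibromin, a GTPase-activating protein that returns RAS to its inactive GDP-bound form and that SPRED1 brings to the membrane. Activating lesions of this route, in receptors such as ALK or in RAS genes, recur in neuroblastoma, and the feedback transcripts are widely read as a measure of ERK output. Phosphorylated ERK itself was not measured by these libraries.

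The promoter stretches of 4 members are shown because the members differ in what they did: SPRY1 rose in both lines, SPRY2 was called lower in SK-N-BE2, DUSP6 was not called with STM2457 in either line, and NF1 was the one member lower in SK-N-BE2 than in NGP with DMSO. RefSeq promoter entries on GRCh38.p14 were found for 6 of the 10 members, and entries for DUSP4, DUSP5, ETV4 and ETV5 were not found in that table. Each line runs 5′ to 3′ on the gene's strand, over the 250 bases before the RefSeq start, or, for NF1, the 200 of those bases that lie before the start of the gene in the deposited files. Capitals mark a match, on either strand, to 1 of 3 motifs: CCGGAA, a core bound by ETS factors, TGANTCA, bound by AP-1, or TGACGTCA, the cyclic AMP response element.
DUSP6, chr12:89352502-89352751, minus strand: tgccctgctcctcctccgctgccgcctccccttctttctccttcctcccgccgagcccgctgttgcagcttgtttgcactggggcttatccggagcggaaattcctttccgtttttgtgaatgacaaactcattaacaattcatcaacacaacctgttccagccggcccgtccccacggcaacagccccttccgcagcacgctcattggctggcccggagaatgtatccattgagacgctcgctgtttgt
SPRY1, first entry, chr4:123396545-123396794, plus strand: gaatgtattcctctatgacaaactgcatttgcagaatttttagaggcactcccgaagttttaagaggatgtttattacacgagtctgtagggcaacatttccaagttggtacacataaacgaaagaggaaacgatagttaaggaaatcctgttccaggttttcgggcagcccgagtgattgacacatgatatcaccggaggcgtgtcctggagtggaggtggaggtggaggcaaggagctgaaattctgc
SPRY2, first entry, chr13:80341127-80341376, minus strand: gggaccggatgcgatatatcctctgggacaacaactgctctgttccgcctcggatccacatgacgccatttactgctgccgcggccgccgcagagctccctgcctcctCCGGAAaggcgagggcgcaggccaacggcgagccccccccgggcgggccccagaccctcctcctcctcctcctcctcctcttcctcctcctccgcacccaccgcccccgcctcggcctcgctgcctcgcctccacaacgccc
NF1, chr17:31094727-31094926, plus strand: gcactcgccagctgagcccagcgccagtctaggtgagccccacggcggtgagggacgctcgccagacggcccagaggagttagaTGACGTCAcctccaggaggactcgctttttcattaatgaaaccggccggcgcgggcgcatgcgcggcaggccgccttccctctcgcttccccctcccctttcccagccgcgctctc
The first SPRY2 entry held CCGGAA beginning 142 bases before the start, and NF1 held TGACGTCA beginning 166 bases before it. A second SPRY1 entry, which lies inside the gene as deposited, held CCGGAA beginning 67 bases before its start. None of the 3 motifs was found in the 250 bases of DUSP6, of SPRED1, of SPRY4, of the first SPRY1 entry or of the other SPRY2 entries. Over 35116 promoter entries of the same length, 14.5% held CCGGAA, 6.57% held TGANTCA and 1.65% held TGACGTCA. A match is a description of letters in this window only.

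The libraries held between 47242379 and 58159937 counted reads. Small counts were mostly even, 72.1% to 75.4% of counts from 1 to 20 against 49.3% to 51.0% of those above 1000, so both mates of a pair appear to have been counted. An NGP control, DMSO replicate 1, stood apart, with a chi-square per degree of freedom over all genes of 92.6 and 60.8 against the other controls of NGP, which had 11 between them. Pairs of SK-N-BE2 controls had 24.3 to 41.2, while STM2457 pairs had 8.3 to 9.48 in SK-N-BE2 and 2.77 to 14.6 in NGP. Without NGP DMSO replicate 1, 4 of the 10 members were called in NGP (2 higher, 2 lower), DUSP4, NF1, SPRY1 and ETV4, among 7897 of 13776 genes called, against 5671 of 13610 with it. The member counts called for the difference between responses and between the lines with DMSO were 4 and 9 without it, as with it. METTL3 rose with STM2457, by 0.52 on the log2 scale in SK-N-BE2 and by 0.92 in NGP. Of the noradrenergic neuroblastoma markers, all 10 had reads in every group, but TH, the first enzyme of catecholamine synthesis, measured 234 CPM in SK-N-BE2 with DMSO against 0.512 in NGP. Summed fibroblast and mesenchymal markers (10 genes, FAP at 0 reads in NGP) went from 470 to 496 CPM with DMSO to 657 to 720 with STM2457 in SK-N-BE2, and from 282 to 296 to between 687 and 833 in NGP. Summed Schwann cell, epithelial, leukocyte and endothelial markers stayed at or below 21.6 CPM in all 12 libraries, with CDH19 and FOXD3 at 0 reads in SK-N-BE2, CDH1 at 0 in SK-N-BE2 with DMSO, and PTPRC, CD3E and PECAM1 at 0 in NGP. Mitochondrially encoded genes took 2.78% to 3.64% of reads in NGP with DMSO and 6.46% to 7.16% with STM2457, and 8.43% to 11.3% and 8.23% to 10.3% in SK-N-BE2. The part of these markers and shares in the changes of the 10 members was not tested.

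With STM2457 the members moved in different directions and differently in the lines. In SK-N-BE2, ETV5, DUSP5, SPRY4 and SPRY2 fell and SPRY1 and ETV4 rose, while DUSP4, DUSP6, SPRED1 and NF1 did not pass the test. In NGP, DUSP4 fell, ETV4 and SPRY1 rose, and the other 7 did not pass. ETV4 and SPRY1 were the members called in both lines, each upward. In SK-N-BE2 6 of 10 members were called (2 higher, 4 lower), where 54.7% of the 14013 genes tested were called, 26.9% higher and 27.8% lower. In NGP 3 of 10 were called (2 higher, 1 lower), where 41.7% of 13610 genes were called, 19.4% higher and 22.2% lower. Both counts lie near the share called among all genes. Calls are edgeR quasi-likelihood tests at an adjusted p under 0.05, adjusted over all genes tested in that comparison. The median log2 fold change of the members was -0.14 in SK-N-BE2 and -0.02 in NGP, beside -0.02 and -0.03 over all genes tested. The STM2457 and DMSO libraries did not overlap in CPM for 8 members in SK-N-BE2 and 4 in NGP, where 62.2% and 54.7% of all genes did not overlap. CPM here is on the TMM scale of all 12 libraries, and a lower CPM may be fewer cells holding a transcript or less of it in each cell, which cannot be told apart.

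**Figure D1:**
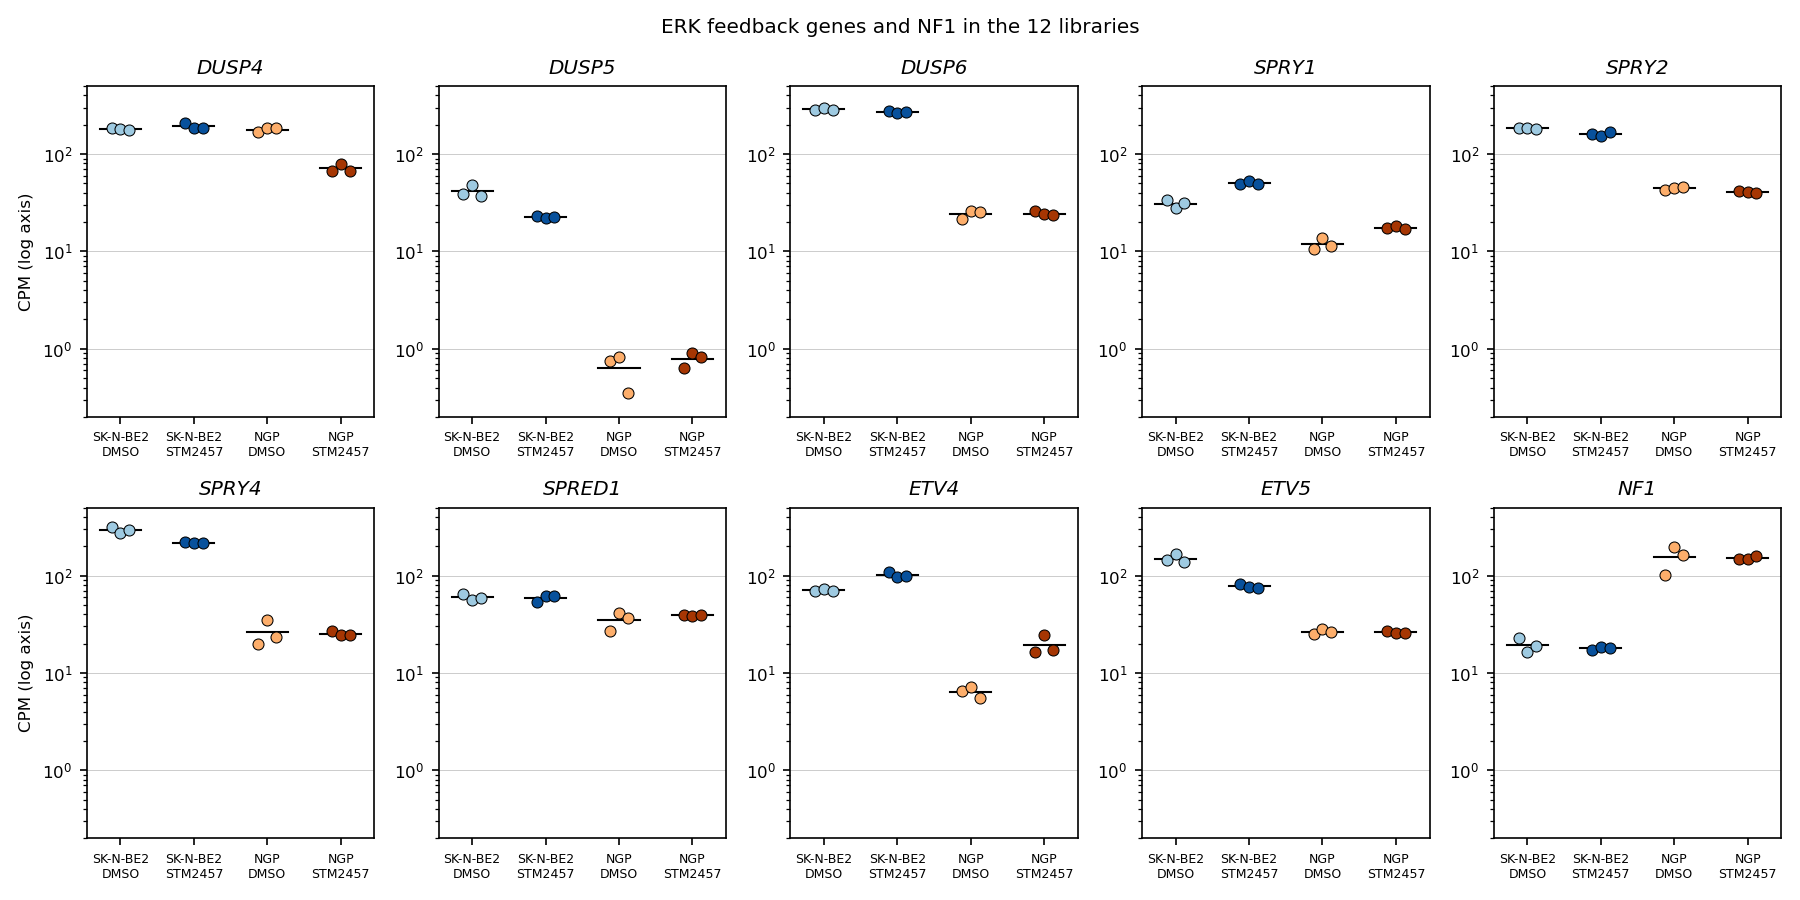
CPM (log axis) of the 10 members in each library, in 4 groups of 3 libraries, with a line at each group mean. DUSP4 is level with DMSO in both lines and falls to a mean of 71.3 CPM with STM2457 in NGP, DUSP5 lies under 1 CPM in all NGP libraries, and NF1 is the member that is higher in NGP.

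Among the phosphatases, DUSP4, which acts on ERK in the nucleus, fell in NGP and not in SK-N-BE2. DUSP4 (chromosome 8, 29333064 to 29350684, minus strand, GRCh38 as in the files) measured 168, 185 and 183 CPM in the NGP DMSO libraries and 67.3, 79.4 and 67.3 with STM2457. All 3 treated NGP libraries lay below all 3 controls. The log2 fold change was -1.35 (edgeR adjusted p 4.35e-05, SE 0.11), a 2.55-fold lower level. In SK-N-BE2 it measured 183, 181 and 175 CPM with DMSO and 210, 187 and 184 with STM2457. The treated libraries lay just above the controls, but the change of 0.07 (SE 0.08, 95% interval -0.10 to 0.25, edgeR adjusted p 0.483) did not pass the test.

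DUSP5, a nuclear ERK phosphatase, fell in SK-N-BE2 and was barely expressed in NGP. DUSP5 (chromosome 10, 110497907 to 110511533, plus strand) measured 39.1, 47.8 and 37 CPM in SK-N-BE2 with DMSO and 23.1, 22.1 and 22.6 with STM2457. All treated libraries lay below the controls, with a log2 fold change of -0.91 (edgeR adjusted p 1.18e-05, SE 0.11), 1.87-fold lower. In NGP it measured 0.754, 0.822 and 0.35 CPM with DMSO and 0.641, 0.899 and 0.828 with STM2457, from 18 to 42 reads in a library. The groups overlapped and the change of 0.27 did not pass (edgeR adjusted p 0.609). At this depth its 95% interval was wide, from -0.62 to 1.16, though it leaves out the change of -0.91 seen in SK-N-BE2.

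DUSP6, the cytoplasmic ERK phosphatase and a common readout of ERK activity, was the most abundant of the 3 phosphatases per exon length in SK-N-BE2 and was not called with the drug in either line. DUSP6 (chromosome 12, 89347235 to 89352501, minus strand) measured 281, 298 and 286 CPM in SK-N-BE2 with DMSO and 275, 267 and 273 with STM2457. The treated libraries lay below the controls by a small margin, a log2 fold change of -0.12 (SE 0.08, 95% interval -0.29 to 0.05, edgeR adjusted p 0.199). In NGP it measured 21.6, 25.7 and 25.2 CPM with DMSO and 25.8, 24.2 and 23.5 with STM2457. Here the groups overlapped, with a change of -0.01 (95% interval -0.27 to 0.26, edgeR adjusted p 0.976). These intervals leave out a fall as large as that of DUSP5 in SK-N-BE2 or of DUSP4 in NGP. Exons of a long non-coding gene on the other strand overlap 28.6% of the DUSP6 exon length, and strand was not used in counting, so DUSP6 levels are uncertain by the reads of that gene.

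SPRY1, a Sprouty inhibitor of receptor signalling, rose in both lines. SPRY1 (chromosome 4, 123396795 to 123403760, plus strand) measured 33.6, 27.9 and 31.6 CPM in SK-N-BE2 with DMSO and 49.5, 53.2 and 48.9 with STM2457. No treated library overlapped a control, and the log2 fold change was 0.67 (edgeR adjusted p 4.83e-05, SE 0.09), 1.59-fold higher. In NGP the values were 10.6, 13.7 and 11.4 CPM with DMSO and 17.4, 18.1 and 16.8 with STM2457. The NGP groups did not overlap either, with a log2 fold change of 0.52 (edgeR adjusted p 0.0147, SE 0.14). This NGP call was lost without DMSO replicate 3 or without STM2457 replicate 1 (edgeR adjusted p 0.0586 and 0.0572), at changes of 0.49 and 0.52.

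SPRY4, whose product can bind RAF, fell in SK-N-BE2. SPRY4 (chromosome 5, 142310427 to 142326455, minus strand) measured 319, 272 and 296 CPM with DMSO and 220, 215 and 217 with STM2457. All treated libraries lay below the controls, and the log2 fold change was -0.48 (edgeR adjusted p 0.000299, SE 0.08). In NGP it measured 19.9, 34.8 and 23.6 CPM with DMSO and 27, 24.3 and 24.5 with STM2457. The NGP controls spread across the treated values, with a change of -0.07 (SE 0.20, 95% interval -0.52 to 0.38, edgeR adjusted p 0.789).

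SPRY2, the most abundant Sprouty transcript per exon length in all 4 groups, was slightly lower with STM2457 in SK-N-BE2. SPRY2 (chromosome 13, 80335976 to 80341126, minus strand) measured 187, 186 and 182 CPM with DMSO and 162, 155 and 168 with STM2457. The groups did not overlap and the log2 fold change was -0.23 (edgeR adjusted p 0.0224, SE 0.08). That call was lost without STM2457 replicate 1, 2 or 3 (edgeR adjusted p 0.0778, 0.105 and 0.0518), and with an offset for exon length, chosen after seeing the data (-0.17, edgeR adjusted p 0.0561). In NGP the values were 43, 45 and 45.6 CPM with DMSO and 41.8, 40.5 and 40 with STM2457. The treated NGP libraries were all lower, but the change of -0.15 (SE 0.09, 95% interval -0.37 to 0.06, edgeR adjusted p 0.227) did not pass.

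SPRED1, which carries neurofibromin to the membrane, had overlapping groups in both lines. SPRED1 (chromosome 15, 38252836 to 38357249, plus strand) measured 65, 55.8 and 58.7 CPM in SK-N-BE2 with DMSO and 54, 61.4 and 61.6 with STM2457, a log2 fold change of -0.06 (95% interval -0.25 to 0.14, edgeR adjusted p 0.618). In NGP it measured 27, 41.3 and 37 CPM with DMSO and 39.2, 38.8 and 39.2 with STM2457, a change of 0.13 (95% interval -0.23 to 0.48, edgeR adjusted p 0.543). The lowest NGP control, replicate 1, was the library that stood apart.

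The ETS factors ETV4 and ETV5 went apart. ETV4 (chromosome 17, 43527844 to 43579620, minus strand) rose in both lines: in SK-N-BE2 it measured 69.2, 73.2 and 69.7 CPM with DMSO and 108, 96.1 and 98.5 with STM2457. No library overlapped, and the log2 fold change was 0.48 (edgeR adjusted p 0.000237, SE 0.08). In NGP it measured 6.47, 7.2 and 5.48 CPM with DMSO and 16.3, 24.4 and 17.1 with STM2457. This was the largest rise of a member, 1.57 on the log2 scale (edgeR adjusted p 0.000409, SE 0.19) or 2.96-fold.

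ETV5 fell in SK-N-BE2 by about as much as DUSP5. ETV5 (chromosome 3, 186046314 to 186110318, minus strand) measured 143, 165 and 137 CPM with DMSO and 81.2, 75.9 and 74.8 with STM2457. All treated libraries were lower, with a log2 fold change of -0.98 (edgeR adjusted p 1.33e-06, SE 0.09), 1.97-fold. In NGP the values were 24.9, 28.4 and 26.4 CPM with DMSO and 27, 25.7 and 25.5 with STM2457. These overlapped, with a change of -0.05 (95% interval -0.30 to 0.19, edgeR adjusted p 0.736), and the interval leaves out a fall of the size seen in SK-N-BE2.

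NF1, the RAS GTPase-activating protein gene, was not called with STM2457 in either line and was low in SK-N-BE2. NF1 (chromosome 17, 31094927 to 31382116, plus strand) measured 23, 16.4 and 19 CPM in SK-N-BE2 with DMSO and 17.2, 18.6 and 18 with STM2457. The groups overlapped, and the log2 fold change was -0.15 (SE 0.12, 95% interval -0.41 to 0.11, edgeR adjusted p 0.297). In NGP it measured 102, 195 and 164 CPM with DMSO and 149, 148 and 157 with STM2457. The treated libraries agreed closely while the controls spread on both sides of them, and the change was -0.04 (SE 0.20, 95% interval -0.51 to 0.42, edgeR adjusted p 0.885).

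NF1 gave different calls when single libraries were left out and when exon length was adjusted for. It has 27130 bases of exon in the files, the longest of the members. In NGP DMSO replicate 1 the shortest of 5 equal groups of genes by exon length lay a median of 0.26 above their group mean on the log2 scale and the longest group 0.23 below it. In SK-N-BE2 DMSO replicate 1 the trend ran the other way, from -0.12 to 0.11. NF1 was the member farthest below its group mean in NGP DMSO replicate 1, at -0.54, followed by SPRY4 and SPRED1 at -0.35 each, and in SK-N-BE2 DMSO replicate 1 it was the highest, at 0.25. Without NGP DMSO replicate 1, NF1 in NGP was called lower with STM2457 (-0.27, edgeR adjusted p 0.0174, SE 0.08). With an offset that removes the trend of each library with exon length, chosen after seeing the data, NF1 was called lower in SK-N-BE2 (-0.29, edgeR adjusted p 0.0179, SE 0.09), while its change in NGP, -0.08 with an SE of 0.11, missed the threshold (edgeR adjusted p 0.587). Leaving out SK-N-BE2 DMSO replicate 1 gave NF1 a change of -0.0185 in that line, which missed it too (edgeR adjusted p 0.897). Reads that map to several places were not counted, and NF1 has pseudogene copies, so its level is uncertain.

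**Figure D2:**
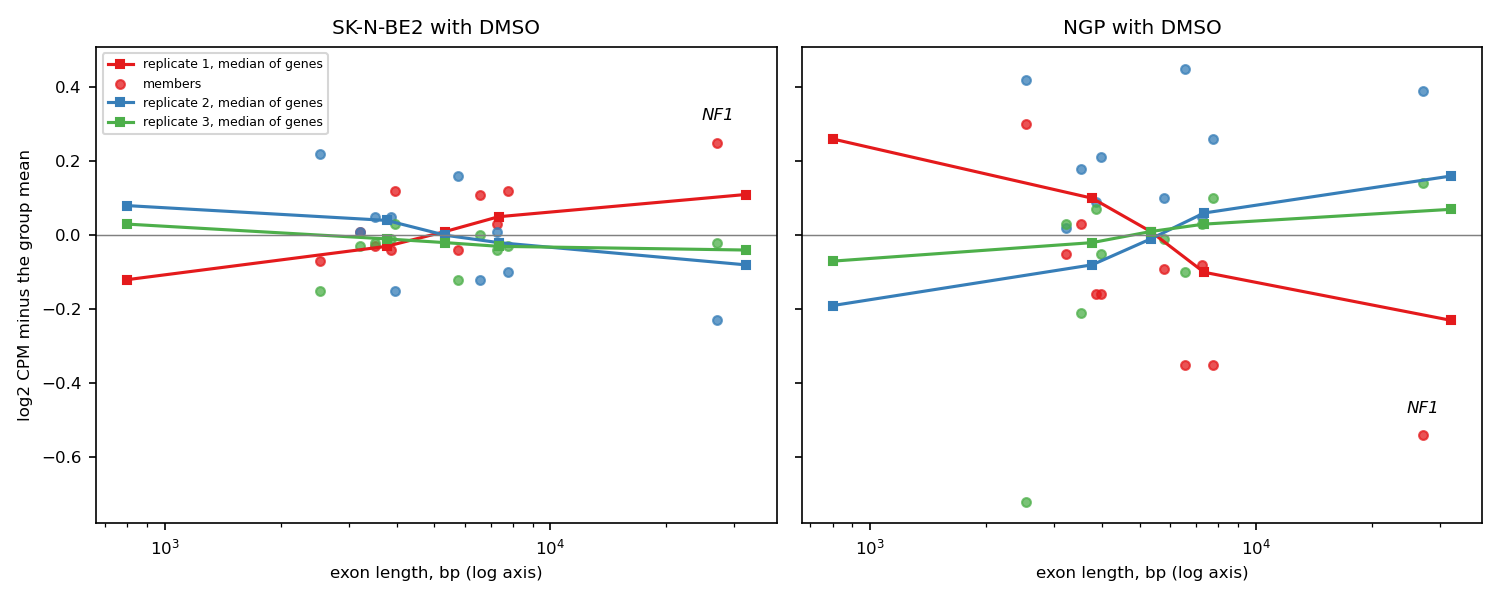
Deviation of log2 CPM from the mean of the group in the DMSO libraries, against exon length (log axis). Squares joined by lines are medians of all genes in 5 groups of exon length, placed at the geometric middle of each group, and circles are the 10 members, coloured by replicate; in NGP the red line of replicate 1 falls from 0.26 to -0.23 and its NF1 circle lies at -0.54.

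With DMSO alone, the lines differed in nearly every member. Of the 10, 8 were higher in SK-N-BE2, NF1 was lower, and DUSP4 was not called. Of 14731 genes tested 71.1% were called, 35.7% higher and 35.4% lower in SK-N-BE2, and 68.9% did not overlap, against 9 of the 10 members. The median member difference was 2.27 on the log2 scale, beside 0.00 over all genes. DUSP5 differed most, 6.00 on the log2 scale (edgeR adjusted p 1.63e-11, SE 0.23), 64.1-fold, with 1937 to 2374 reads in a SK-N-BE2 control library and 18 to 42 in an NGP one. DUSP6, SPRY4 and ETV4 followed at 3.58, 3.50 and 3.47, which is 11.9-, 11.3- and 11.1-fold (edgeR adjusted p 5.75e-13, 1.63e-10 and 8.43e-11). ETV5 and SPRY2 stood at 2.48 and 2.05, SPRY1 at 1.38 and SPRED1 at 0.77 (edgeR adjusted p 0.000105, SE 0.13). DUSP4 was level, at a mean of 180 ± 4.27 CPM in SK-N-BE2 and 179 ± 8.92 in NGP (SD, n = 3), a difference of 0.01 (95% interval -0.18 to 0.20, edgeR adjusted p 0.942). NF1 was the exception in direction, at 19.4 ± 3.31 CPM against 153 ± 47.1 (SD, n = 3), a difference of -2.98 (edgeR adjusted p 4.57e-09, SE 0.19) or 7.89-fold. The DMSO libraries of this comparison are also the controls of both drug comparisons. The folder named in the file headers also differed between the lines, so line and any run difference cannot be told apart.

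**Figure D3:**
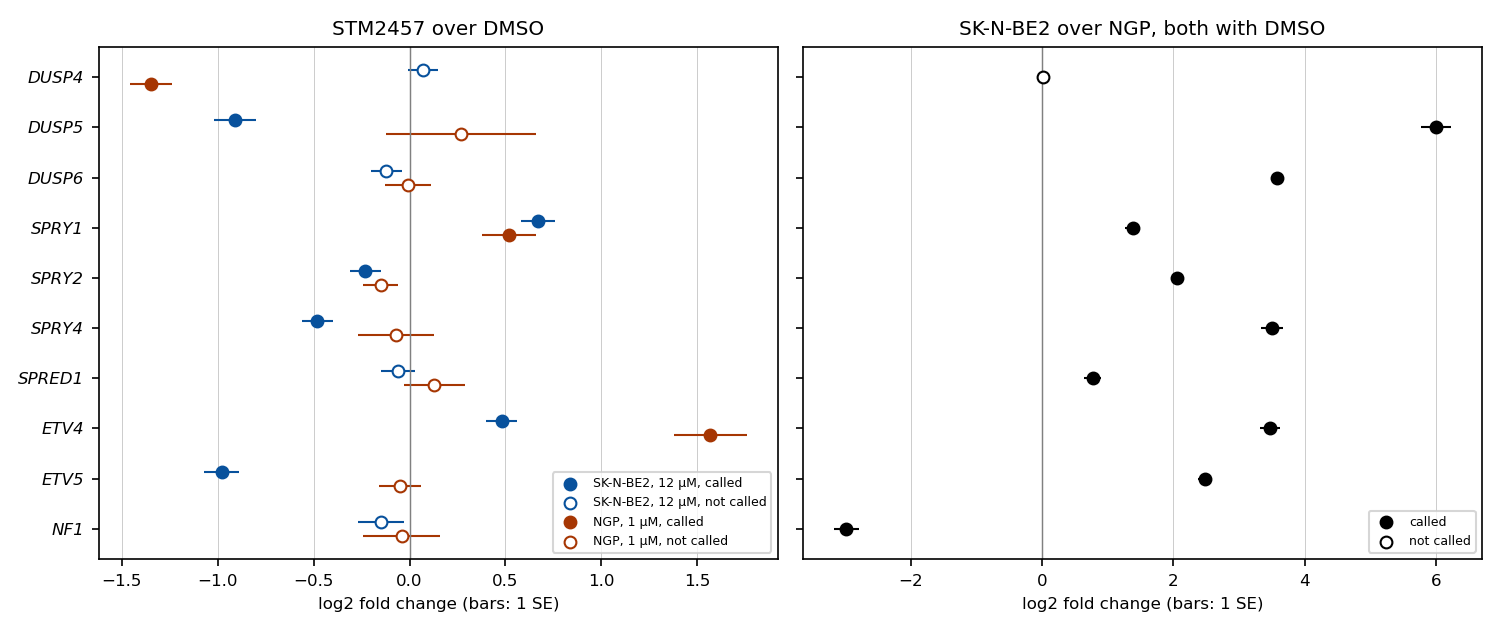
Left, log2 fold change of STM2457 over DMSO for the 10 members in SK-N-BE2 (blue) and NGP (red); right, SK-N-BE2 over NGP with DMSO; bars are 1 SE and filled points passed an edgeR adjusted p of 0.05. ETV4 and SPRY1 lie above 0 in both lines, DUSP4 is called in NGP, at -1.35, and not in SK-N-BE2, and on the right DUSP4 lies at 0.01 with NF1 at -2.98 and DUSP5 at 6.00.

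The responses themselves were compared as the change in SK-N-BE2 minus the change in NGP over all 12 libraries. Of the 10 members 4 were called, 1 whose change was higher in SK-N-BE2 and 3 whose change was higher in NGP. Among 14731 genes 30.9% were called, 17.0% and 13.9% in those directions, and the member median was -0.14 beside 0.02. DUSP4 differed by 1.43 (edgeR adjusted p 2.85e-06, SE 0.13), having fallen in NGP and not passed in SK-N-BE2. ETV4 differed by -1.08 (edgeR adjusted p 0.00108, SE 0.20), having risen more in NGP. ETV5 differed by -0.91 (edgeR adjusted p 0.000144, SE 0.13) and DUSP5 by -1.17 (edgeR adjusted p 0.0113, SE 0.31), each having fallen in SK-N-BE2. For the other 6 members the difference was not called. Its 95% intervals were -0.36 to 0.15 for DUSP6, -0.18 to 0.49 for SPRY1, -0.28 to 0.16 for SPRY2, -0.57 to 0.22 for SPRED1 and -0.65 to 0.45 for NF1, so the fall of SPRY2 in SK-N-BE2 alone is not shown to be particular to that line. SPRY4 stood at -0.39 (95% interval -0.86 to 0.07, edgeR adjusted p 0.181) and was called without NGP DMSO replicate 2 (-0.66, edgeR adjusted p 0.00267), the control with the highest SPRY4 level in NGP.

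The make-up of each family was read from RPKM, the CPM per kilobase of exon, which allows levels of different genes to be set side by side. In SK-N-BE2 with DMSO, DUSP6 made up 64.6 ± 1.02% of the summed RPKM of the 3 phosphatases, DUSP4 21.3 ± 0.795% and DUSP5 14 ± 1.38% (SD, n = 3). In NGP with DMSO the order was turned, with DUSP4 at 79.1 ± 0.644%, DUSP6 at 20.1 ± 0.755% and DUSP5 at 0.82 ± 0.334%. With STM2457 the DUSP4 share in NGP went to 59.5 ± 2.55% and the DUSP6 share to 38.6 ± 2.76%, while the summed RPKM went from 31.1 ± 1.79 to 16.5 ± 0.973. The DUSP6 RPKM itself was 6.26 and 6.34 there, so its share grew as DUSP4 fell. In SK-N-BE2 the DUSP5 share went from 14% to 8.42 ± 0.0768%, and the summed RPKM from 116 ± 4.46 to 106 ± 2.85.

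SPRY2 was the leading Sprouty transcript in every group, with 52.2 ± 2.08% of the summed RPKM in SK-N-BE2 with DMSO and 66.8 ± 4.61% in NGP with DMSO. SPRY1, the least abundant Sprouty in SK-N-BE2, grew from 7.08 ± 0.415% to 13.2 ± 0.84% there with STM2457, and in NGP from 14.4 ± 0.718% to 21 ± 0.728%, without overlap between groups. SPRY4 went from 40.7 ± 1.67% to 34.4 ± 0.483% in SK-N-BE2 and stood at 18.9 ± 3.91% and 18.4 ± 0.709% in NGP. The summed Sprouty RPKM went from 110 ± 4.41 to 96.3 ± 1.64 in SK-N-BE2 and was 20.9 with either treatment in NGP.

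The balance of the ETS pair moved toward ETV4 in both lines. ETV4 made up 44 ± 1.76% of the summed RPKM of the pair in SK-N-BE2 with DMSO and 68.2 ± 0.575% with STM2457, and 28.3 ± 2.47% and 54.3 ± 5.83% in NGP. In both lines all treated libraries lay above all controls. The routes differed: ETV4 rose and ETV5 fell in SK-N-BE2, where the sum went from 45.8 ± 3.16 to 42.1 ± 2.36 RPKM with overlapping libraries, while in NGP ETV4 rose, ETV5 was not called, and the sum went from 6.42 ± 0.475 to 10 ± 1.2 RPKM. These shares are descriptions and carry no test.

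**Figure D4:**
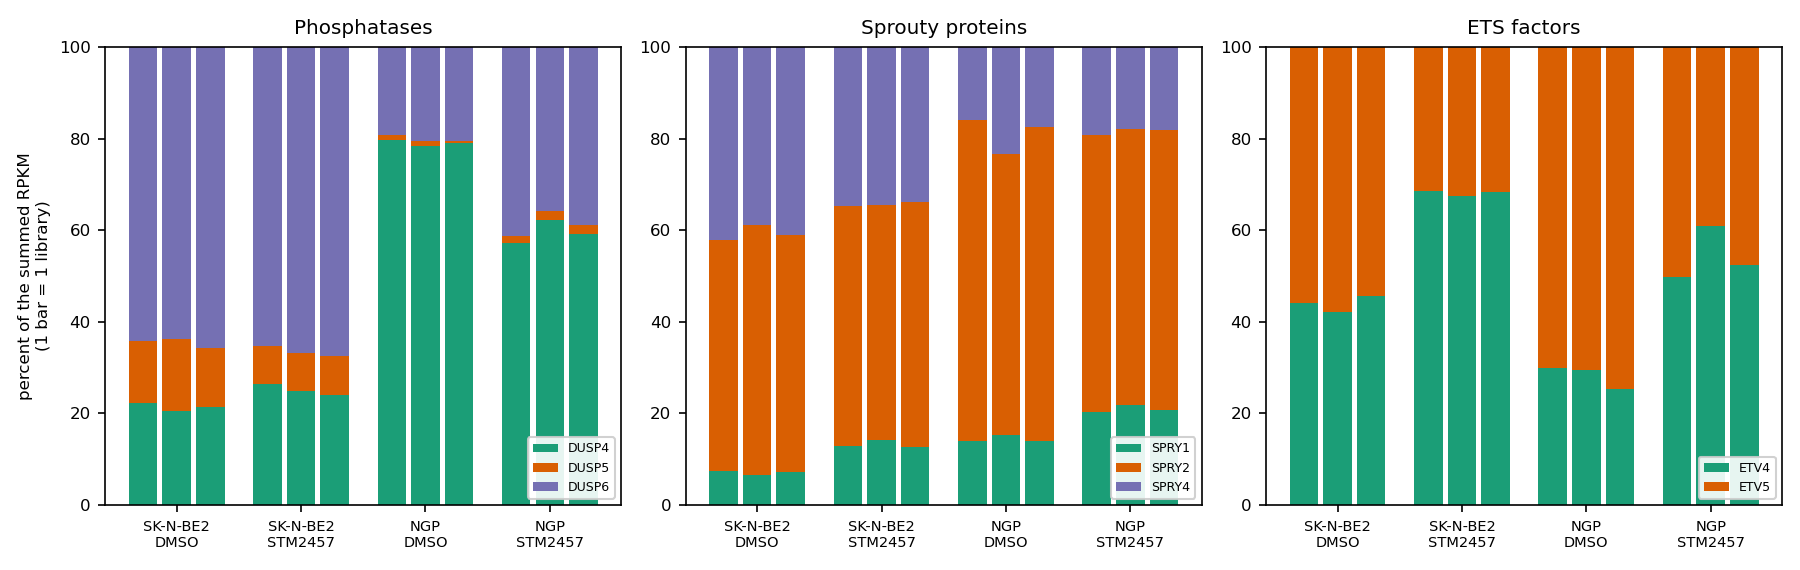
Share of each member in the summed RPKM of its family (percent, each bar 1 library) for the phosphatases, the Sprouty proteins and the ETS factors. DUSP6 leads in SK-N-BE2 and DUSP4 in NGP, and the ETV4 share is larger with STM2457 than with DMSO in all libraries of both lines.

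Ordered by RPKM in SK-N-BE2 with DMSO, the members ran DUSP6 (74.8), SPRY2 (57.6), SPRY4 (45), ETV5 (25.7), DUSP4 (24.7), ETV4 (20.1), DUSP5 (16.3), SPRY1 (7.82), SPRED1 (7.72) and NF1 (0.717). Neighbours in that order did not overlap except ETV5 with DUSP4 and SPRY1 with SPRED1. With STM2457, ETV4 (28.7) moved up to the place after SPRY4 and overlapped DUSP4 (26.6), ETV5 (13.4) overlapped SPRY1 (12.7), and DUSP5 (8.92) came next. In NGP with DMSO the order ran DUSP4 (24.6), SPRY2 (13.9), DUSP6 (6.26), NF1 (5.66), ETV5 (4.6), SPRED1 (4.53), SPRY4 (3.98), SPRY1 (3.01), ETV4 (1.82) and DUSP5 (0.253). Each neighbour from DUSP6 down to SPRY1 overlapped the next. With STM2457 SPRY2 (12.7) led and DUSP4 (9.81) came second without overlap. NF1 is set low on this scale in part by its long exon total, since reads are divided by a length that joins the exons of all its transcripts.

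Another 4 lists held the rest of the pathway, and the members' responses are read beside them. Among 20 other brakes on ERK tested in SK-N-BE2, 6 were called higher and 5 lower (median 0.04), and among 19 in NGP 5 and 5 (median 0.05). These were 55% and 52.6% called, beside 54.7% and 41.7% of all genes tested. IL17RD, a membrane inhibitor of FGF signalling, rose in both lines (0.68 and 1.21, edgeR adjusted p 0.000759 and 0.000416). ERRFI1, an inhibitor of the EGF receptor, fell in both (-1.19 and -0.53, edgeR adjusted p 1.55e-06 and 0.0178), though 4 of 6 leave-one-out fits of NGP lost the call (adjusted p at most 0.0777). DUSP7, a cytoplasmic ERK phosphatase like DUSP6, fell in SK-N-BE2 (-0.56, edgeR adjusted p 0.000151) and rose in NGP (0.32, edgeR adjusted p 0.0373, lost in 4 of 6 such fits, at most 0.114, and with no filter on low counts, 0.0518). DUSP10, which acts mainly on the stress kinases, fell in both lines (-0.43 and -0.93, edgeR adjusted p 0.00436 and 0.000995). The RAS GTPase-activating DAB2IP rose in SK-N-BE2 (0.66, edgeR adjusted p 3.55e-05), and RASA3, of the same activity, in NGP (1.08, edgeR adjusted p 0.000204), where SPRED3 fell (-1.10, edgeR adjusted p 0.00225).

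Of the 4 lists, the other outputs of ERK had the largest median difference between responses, -1.50. Of the 15 outputs tested for it, 66.7% were called, beside 30.9% of all genes tested. The share was 60% for the other brakes, 57.9% for the receptors and 30.8% for the cascade. Of 15 tested in SK-N-BE2 11 were called lower and 1 higher (median -0.97), while of 13 in NGP 4 were called higher and 4 lower (median 0.15). These were 80% and 61.5% called, beside 54.7% and 41.7% of all genes tested. The immediate-early transcription factor EGR1 fell from 450 ± 29.8 to 102 ± 3.81 CPM in SK-N-BE2 and rose from 8.21 ± 4.52 to 62.9 ± 14 CPM in NGP (SD, n = 3). Its log2 fold changes were -2.17 and 2.91 (edgeR adjusted p 8.74e-10 and 0.000653). FOS, a subunit of AP-1, went the same ways, from 72.5 ± 5.22 to 18.3 ± 1.26 CPM and from 2 ± 1.11 to 23.5 ± 5.91 CPM. Its changes were -2.02 and 3.53 (edgeR adjusted p 3.51e-09 and 0.000188). Cyclin D1 (CCND1), the 1 output called higher in SK-N-BE2, rose there by 0.64 (edgeR adjusted p 0.000185). The ephrin receptors EPHA4 and EPHA2 fell in NGP (-2.40 and -1.49, edgeR adjusted p 3.05e-05 and 0.00168) and in SK-N-BE2 (-0.64 and -0.42, edgeR adjusted p 0.00421 and 0.0156), though 2 of 6 leave-one-out fits lost EPHA2 in SK-N-BE2 (adjusted p at most 0.0866), as did the fit of all 12 libraries together (0.0904).

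Of 26 genes of the cascade itself, from adaptors to nuclear targets, 9 were called higher and 5 lower in SK-N-BE2 (median 0.07) and 4 and 8 in NGP (median -0.15). These were 53.8% and 46.2% called, beside 54.7% and 41.7% of all genes tested. The adaptor GAB1 rose in both lines (1.13 and 0.84, edgeR adjusted p 6.21e-06 and 0.00738). MAP2K2, which encodes the kinase MEK2, fell in both (-0.66 and -0.74, edgeR adjusted p 0.0001 and 0.013). It was not called in NGP when STM2457 replicate 1 or 3 was left out (adjusted p 0.0554 and 0.0558). The ERK-activated kinase RPS6KA2 fell in both (-0.92 and -0.44, edgeR adjusted p 1.91e-06 and 0.0202, the latter lost in 4 of 6 leave-one-out fits, at most 0.0983). The RAS-like GTPase MRAS rose in SK-N-BE2 (0.64, edgeR adjusted p 0.000389) and fell in NGP (-0.36, edgeR adjusted p 0.0457, lost in 4 of 6 such fits, at most 0.175, with DESeq2 size factors, 0.0515, and with no filter, 0.0553). In NGP the related kinase RPS6KA1 rose (0.77, edgeR adjusted p 0.00373) and ERF, an ETS repressor restrained by ERK, fell (-0.91, edgeR adjusted p 0.00176).

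Among receptors upstream of RAS, 10 were called higher and 7 lower of 19 in NGP (median 0.51), 89.5% beside 41.7% of all genes tested. In SK-N-BE2 7 were called higher and 4 lower of 18 (median 0.13), 61.1% beside 54.7% of all genes tested. The difference in counts between the lines was not tested. RET, the receptor for GDNF-family ligands, fell from 787 ± 21.9 to 399 ± 15.4 CPM in SK-N-BE2 (-1.02, edgeR adjusted p 5.53e-07) and rose in NGP (1.03, edgeR adjusted p 0.00164). The platelet-derived growth factor receptor PDGFRB rose from 29.6 ± 4 to 141 ± 8.56 CPM in NGP (2.23, edgeR adjusted p 9.72e-06) and by 0.32 in SK-N-BE2 (edgeR adjusted p 0.0156, lost in 1 of 6 leave-one-out fits, 0.063). The neurotrophin receptor NTRK2 fell in NGP (-2.74, edgeR adjusted p 5.15e-05). FGFR3 fell there from 19.5 ± 2.72 to 1.13 ± 0.0558 CPM (-4.13, edgeR adjusted p 2.89e-06). In SK-N-BE2 PDGFRA and ERBB3 rose (1.62 and 1.34, edgeR adjusted p 2.96e-05 and 0.000371), reaching 3.79 and 3.24 CPM, and ERBB2 fell (-1.09, edgeR adjusted p 0.000419). In NGP PDGFRA was called higher too (0.53, edgeR adjusted p 0.00476). ERBB2 and ERBB3 were called lower there (-0.64 and -1.81, edgeR adjusted p 0.00486 and 0.0124). The ERBB2 difference between responses was not called (edgeR adjusted p 0.174). PDGFRA and PDGFRB are also on the fibroblast and mesenchymal marker list, and ERBB3 on the Schwann cell list.

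**Figure D5:**
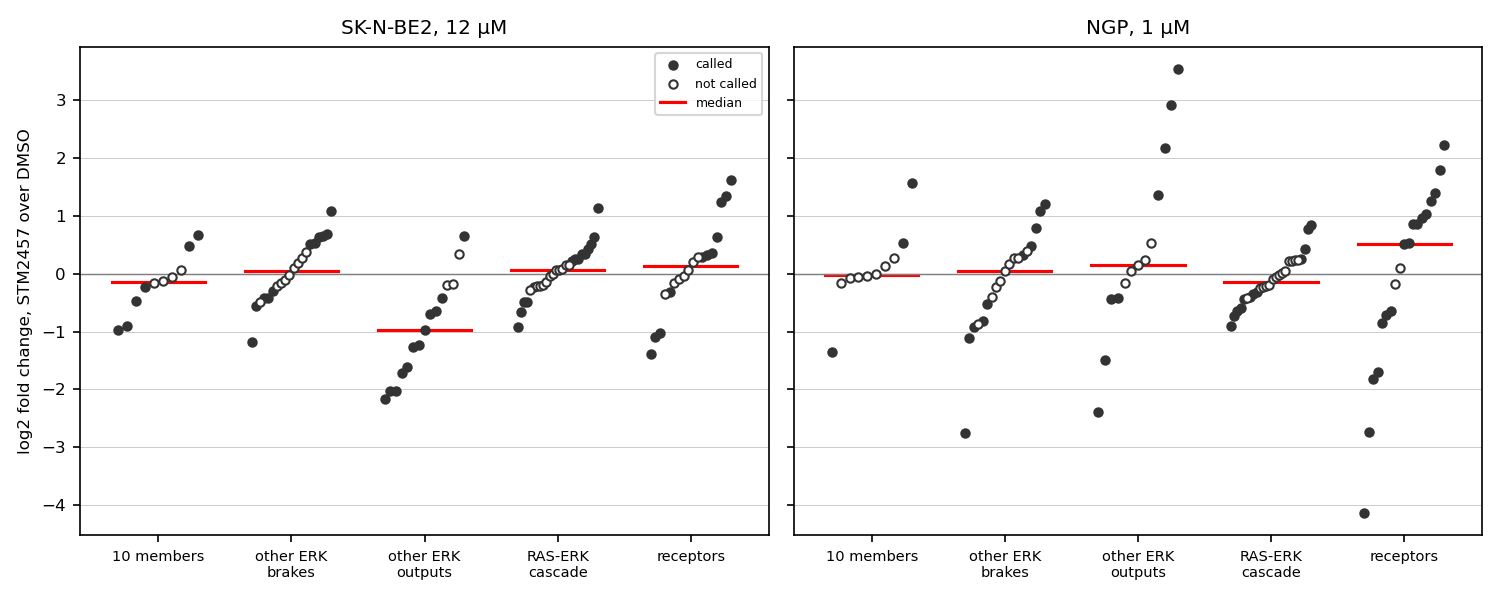
Log2 fold change of STM2457 over DMSO for each tested gene of the 10 members and of the 4 other lists, in SK-N-BE2 (left) and NGP (right), sorted within each list, with filled points for an edgeR adjusted p under 0.05 and a red line at each median. The other ERK outputs have a median of -0.97 on the left and 0.15 on the right, and the member medians lie near 0.

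The genes whose pattern was most like that of each member were found by Pearson's r of log2 CPM centred within each line, over 12 libraries and 12145 genes. These values describe these libraries only, since the points share libraries, depth and treatment. DUSP4 was most like ZDHHC2 and RAB2A (r 0.993 and 0.991), SPRY1 like TUB and SCD (0.989 and 0.985), and ETV4 like DENND2B and GEM (0.986 and 0.976). ETV5 was most like THBS4 and C9orf64 (both 0.979), SPRY2 like DMGDH and ZFP69B (0.964 and 0.960), and SPRY4 like CSNK1G1 and SLC30A7 (both 0.949). NF1 was most like CDC42BPA and KMT2C (0.982 and 0.980), and SPRED1 like PIKFYVE and RBL2 (0.979 and 0.975). NF1 and SPRED1 were not called with STM2457 in either line, so their r values largely describe the spread between replicates. In NGP DMSO replicate 1 they lay at -0.54 and -0.35 from their group means. The part of exon length in these r values was not tested. DUSP5 and DUSP6 had no gene at an r of 0.9 or more, the highest being HSP90B1 for DUSP5 (0.898) and COPS2 for DUSP6 (0.886), while SPRY1 had 690 such genes and DUSP4 388. SCD, a fatty acid desaturase, changed by 0.67 in SK-N-BE2 and 0.59 in NGP on the log2 scale, close to the 0.67 and 0.52 of SPRY1, whereas DMGDH, at -5.06 and -3.77, shared the direction of SPRY2 but moved much farther.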

How the data were processed

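The authors deposited whole-number counts of reads per gene, 1 file per library, and no normalized values. Per the file headers, featureCounts 2.0.5 counted reads, in its paired setting, over the exons of each gene name in the protein-coding part of GENCODE 33. No strand option, read-pair option or multi-mapping option was set. Per the submitters' processing notes, FastQC 0.11.5, Trimmomatic 0.36, HISAT2 2.1.0, Subread 1.5.3 and GRCh38 were used. Per the labels' protocols, libraries were made with a SMART kit from poly(A) RNA.

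From the deposited counts, each line was fitted on its own 6 libraries with edgeR 4.0.16 under R 4.3.3, and all 12 libraries were used for the difference between responses and for the lines with DMSO. Genes were kept by filterByExpr at a minimum count of 10, scaled by TMM and tested by quasi-likelihood, with Benjamini-Hochberg adjustment over all genes tested and a threshold of 0.05. SE is the log2 fold change divided by the root of its F statistic, and intervals use the t quantile with edgeR's degrees of freedom. No spike-in entered the scaling, so changes are relative. The depth of 47242379 to 58159937 reads per library keeps counting error small for members with many reads and limits DUSP5 in NGP.

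The members and lists were chosen with earlier results of these data known. The 10 members are always named. Of each other list the rule allows up to 3 called genes per line and direction, by largest change with a mean of at least 1 CPM, and the first 2 are named, apart from an item that is not reported here. For likeness, the 2 genes of highest r are named. Alternatives were DESeq2 1.42.0, its size factors within edgeR, upper-quartile factors, halved counts, a joint fit, no filter, a filter at a mean of 1 CPM, a replicate block, and fits that left out 1 library. An exon-length offset in 20 bins and other scalings of the levels were added after seeing the data. The fits were also run on simulated counts. These had far fewer changed genes than were called here and no trend with exon length, so they do not measure the error of these calls. Exon overlaps come from an annotation of the same build, and promoter sequences from RefSeq.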

Additional observations from a re-analysis of the deposited data

Results flagged for a closer look

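These results are listed because the response to STM2457 differed between SK-N-BE2 and NGP in a direct test over all 12 libraries, with edgeR adjusted p from 3.28e-07 to 0.0355. Values are log2 differences, SK-N-BE2 minus NGP, in which the lines, their doses and any run difference cannot be told apart. The comparisons share their DMSO libraries with those of each line. Among the members, DUSP4 differed by 1.43, DUSP5 by -1.17, ETV4 by -1.08 and ETV5 by -0.91.

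Of the other brakes on ERK, DUSP7 differed by -0.87, RASA3 by -0.97 and ERRFI1 by -0.64, while SPRED3 differed by 0.90, DAB2IP by 0.62 and DUSP10 by 0.51. For DUSP10, 7 of 12 leave-one-out fits lost the call (edgeR adjusted p at most 0.106), as did upper-quartile factors (0.0686). The largest differences of all named genes were those of the ERK outputs FOS (-5.54) and EGR1 (-5.07), each lower with STM2457 in SK-N-BE2 and higher in NGP. EPHA4 differed by 1.77, EPHA2 by 1.08 and CCND1 by 0.82.

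In the cascade, MRAS differed by 1.01, ERF by 0.88, RPS6KA1 by -0.97 and RPS6KA2 by -0.47. For RPS6KA2, 7 of 12 such fits lost it (adjusted p at most 0.0864). Among the receptors, FGFR3 differed by 3.97, ERBB3 by 3.16, NTRK2 by 2.82 and PDGFRA by 1.10, and RET by -2.03 and PDGFRB by -1.90. PDGFRA and PDGFRB were each called higher in both lines. With DMSO, PDGFRA had a mean of 1.2 CPM in SK-N-BE2 and 132 in NGP. RET was called in opposite directions in the lines, as were EGR1, FOS, DUSP7, MRAS and ERBB3. The NGP calls of DUSP7 and MRAS were each lost in 4 of 6 leave-one-out fits. ERBB3 in NGP changed by -1.81 (edgeR adjusted p 0.0124) at low levels, from a mean of 1.1 to 0.314 CPM.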

How the results depend on the processing

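No total of called genes or members moved by over 1.5 times in any alternative run. By direction, in NGP, genes called higher went from 2644 to 1759 without STM2457 replicate 1, members called higher from 2 to 1 without it or without DMSO replicate 3, and members called lower from 1 to 2 without DMSO replicate 1. Leaving out 1 library gave 5 to 6 called members among 6497 to 7849 called genes in SK-N-BE2, 2 to 4 among 3816 to 7897 in NGP, 4 to 5 among 3701 to 6274 for the difference between responses and 9 among 9941 to 11072 between the lines with DMSO. Over all member results and settings, 669 kept their direction and side of the threshold, 6 lost a call, 3 gained one and 21 changed sign, all of these last uncalled. Of the other named pathway genes, in the comparisons where they were called, 1051 kept theirs, 48 lost a call and 0 changed sign. DUSP6 in NGP was 0.0118 with DESeq2 size factors and with DESeq2, 0.0196 in the joint fit and 0.0181 with the exon-length offset. Leaving out 1 library gave DUSP6 in NGP -0.0838 to 0.0426, SPRED1 -0.10 to 0.0067 in SK-N-BE2 and -0.0314 to 0.26 in NGP, SPRY4 in NGP -0.24 to 0.19, ETV5 in NGP -0.10 to 0.002, NF1 in NGP -0.27 to 0.17, DUSP5 in NGP -0.0256 to 0.49, the NF1 difference between responses -0.31 to 0.11, and DUSP4 between the lines with DMSO -0.0109 to 0.0575. The causes were not tested. Replicate numbers are shared between groups. Deviations of same-numbered libraries correlated at -0.141, 0.135 and 0.002 for SK-N-BE2, and for NGP at 0.005, -0.138 and 0.064. Differently numbered ones ran from -0.323 to 0.31 and from -0.169 to 0.17. Same numbers thus did not stand out, but with 3 libraries per group this cannot exclude a pairing. With a replicate block, NF1 in NGP was 0.0072, 7522 genes were called in SK-N-BE2, 5026 in NGP, 3997 for the difference and 10147 between the lines with DMSO, and 6, 3, 4 and 9 members. The block also lost the calls of DUSP7 and MRAS in NGP (edgeR adjusted p 0.0771 and 0.0744) and of the DUSP10 and RPS6KA2 differences (0.0605 and 0.0513). Upper-quartile factors moved some mean levels beyond the SD of their replicates, such as ETV4 in SK-N-BE2 with DMSO to 73.3 CPM. Depth limits DUSP5 in NGP, and 3 replicates limit small changes such as that of SPRY2.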

Other observations

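The level of NF1 between the lines was set beside that of its neighbours, which were chosen after its value was seen. Within 1 Mb on either side on chromosome 17 (GRCh38) the files hold 25 other protein-coding genes, 20 of which had enough reads to test with DMSO. Of these, 15 were called lower in SK-N-BE2 than in NGP and 1 higher (edgeR, adjusted over all genes). Over all genes tested, 35.4% were called lower and 35.7% higher. The median log2 difference of the neighbours was -1.35, beside 0.00 over all genes. RAB11FIP4, which begins just after NF1, at 31391675, was the lowest, at 20.6 ± 1.69 CPM against 205 ± 5.72 (SD, n = 3), a difference of -3.32 (SE 0.10, edgeR adjusted p 1.76e-12). ATAD5, a replication clamp unloader upstream of NF1, stood at -2.76 (SE 0.20, edgeR adjusted p 1.48e-08), and SUZ12, a subunit of the Polycomb methyltransferase downstream of it, at -1.68 (SE 0.12, edgeR adjusted p 1.21e-08). RNF135 was the 1 called higher, 2.36 (SE 0.40, edgeR adjusted p 0.000103), at 1.62 ± 0.409 CPM against 0.313 ± 0.155. At the edges of the window EFCAB5 and NSRP1 were not called (-0.49 and 0.18, edgeR adjusted p 0.25 and 0.125), whereas ZNF207, at the other edge, was lower (-0.86, edgeR adjusted p 3.49e-07). OMG, EVI2A and EVI2B, which lie inside NF1 on the other strand, had at most 0.124 CPM on average in either line with DMSO, and EVI2A was at 0 reads. DNA was not measured here.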
